A study of Rattus norvegicus with 24 samples.

Results

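The comparison described here is that of the midbrain of rats given the high dose of MK-801 against the midbrain of rats given saline, measured on the 2 arrays that the labels title as this pair, out of 24 arrays in the series. The animals were male Wistar rats, 9 weeks old by the sample labels and 10 weeks old by the design text, and received a single intraperitoneal injection of MK-801 at 0.16 mg/kg or of saline. Brains were removed 40 min later. Of 9 rats in the study 3 received saline, and the others received 0.16 mg/kg or the low dose of 0.08 mg/kg. Besides the midbrain, 5 regions were dissected from the same brains (amygdala, ventral striatum, cerebral cortex, hippocampus and hypothalamus), and each region and dose was hybridised against saline RNA of that region on 2 arrays of opposite dye. On array 1 the treated midbrain RNA carried Cy5, and on array 2 it carried Cy3. The labels do not say how many rats an extract held or whether both arrays held separate extracts, so the pair was counted as 1 replicate and no test within the midbrain is used here. Every ratio below is log2 of MK-801 over saline, so that 0.58 is about 1.5-fold, and where a mean is given it is that of both arrays.

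MK-801, also named dizocilpine, enters the open channel of the NMDA type of glutamate receptor and blocks it. NMDA receptors pass calcium into the neuron when glutamate binds while the membrane is depolarised, and this calcium starts the transcription of immediate early genes. The midbrain holds the dopamine neurons of the substantia nigra and ventral tegmental area, the serotonin neurons of the raphe nuclei, the peptide neurons of the Edinger-Westphal nucleus and the colliculi, and it borders the thalamus in front and the pons behind. The labels name the tissue only as midbrain, so which of these nuclei a dissected piece held is not given.

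Several genes below were read by 1 probe and others by probes that did not give the same ratio, so the 60-base probes of 6 genes are shown, with coordinates of the rn3 build as the scanner files print them. Galnt16 and Prkcd were the genes with symbols that were lowest, Tph2 and Slc6a4 mark serotonin neurons, Col1a2 was the highest of those with both channels above background, and P3h3 had probes that differed. Capitals mark AATAAA, the common polyadenylation signal, which 4 of 70 probes of the named genes contained (5.71%). The Galnt16 probe is placed at chr6:104363509-104367590, an interval longer than the probe, and that of Prkcd at chr16:5954514-5954573. The Tph2 probe lies at chr7:54341942-54342001, those of Slc6a4 at chr10:67153686-67153745 and chr10:67160350-67160409, those of P3h3 at chr4:161209246-161209305 and chr4:161223203-161223262, and those of Col1a2 at chr4:29466649-29466708 and chr4:29463744-29463803. Those of Galnt16 and Col1a2 are on the plus strand and the others on the minus strand.
Galnt16: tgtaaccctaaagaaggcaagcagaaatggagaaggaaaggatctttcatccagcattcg
Prkcd: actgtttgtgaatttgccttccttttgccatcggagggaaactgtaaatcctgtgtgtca
Tph2: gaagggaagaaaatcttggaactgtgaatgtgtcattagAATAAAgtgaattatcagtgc
Slc6a4, brighter probe: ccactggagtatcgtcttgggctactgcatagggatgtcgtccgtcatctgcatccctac
Slc6a4, other probe: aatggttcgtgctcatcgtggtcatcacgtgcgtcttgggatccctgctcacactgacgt
P3h3, brighter probe: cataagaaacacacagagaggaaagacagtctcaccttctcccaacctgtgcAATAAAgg
P3h3, other probe: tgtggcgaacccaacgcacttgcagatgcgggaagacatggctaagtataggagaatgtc
Col1a2, brighter probe: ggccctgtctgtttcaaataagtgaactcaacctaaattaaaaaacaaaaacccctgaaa
Col1a2, other probe: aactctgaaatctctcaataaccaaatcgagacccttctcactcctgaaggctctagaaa
The second Slc6a4 probe stood at 0.35 on array 1 and 1.05 on array 2, a mean of 0.70 beside 0.67 for the brighter probe. The second Col1a2 probe stood at 0.65 and 0.66 beside 0.89 and 0.84. For P3h3, a collagen prolyl hydroxylase, the brighter probe stood at -0.29 and -0.96 and the other at -0.21 and 0.28. That other probe was dim (mean log2 signal 6.93 beside 11.9), with saline RNA well above background on 1 of 2 arrays. It therefore gives no direction for the gene.

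Array 1 stood apart by position before any gene was considered. Ratios on an array should not depend on where a spot lies, yet in a band of spot rows 211 to 294 on array 1 the ratio was low. Of 190 blocks of 14 rows by 17 columns, 18 had a median past 0.2 in either direction, from -0.81 to -0.21, and held 3909 probes. Array 2 had 1 such block, at 0.20, the midbrain low-dose arrays had 0, and of the other 20 arrays 2 had 1 each. The band held 2180 of the 24484 genes measured (8.90%). A smaller patch at the last rows of array 1, within columns 43 to 57, had 14 of 76 genes past 1.5-fold upwards against 1 of the same 76 on array 2. The counts over all genes are therefore given with and without the band, and genes in either place are named as such. Of the list medians, that of the clock genes moved most when the marked blocks were left out, from 0.04 over 18 genes to 0.06 over 14. Median net signal was 342 (Cy5) and 74.3 (Cy3) intensity units on array 1 and 330 and 70.5 on array 2. The ratios of arrays 1 and 2 had a Pearson correlation of -0.475 over the genes of this comparison, where a gene is no replicate. An effect of dye enters the arrays with opposite sign and cancels in their mean.

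**Figure D1:**
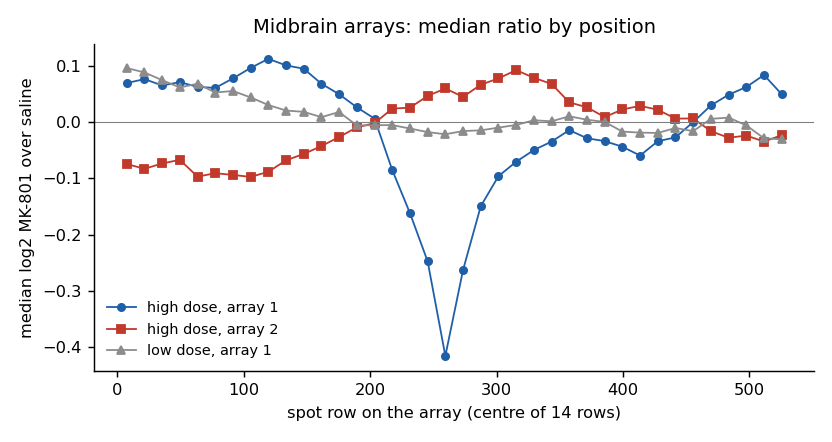
Median log2 ratio of MK-801 over saline (vertical axis) by spot row (horizontal axis, centre of each 14 rows) on array 1 and array 2 of the high dose and array 1 of the low dose. Of these 3 arrays the high-dose array 1 alone has the dip within rows 211 to 294.

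The saline channels carried midbrain markers. Of 19 dopamine neuron markers, 17 were higher in the saline midbrain than in the mean of the other 5 regions and 15 were highest there of all 6, with a median difference of 2.58 log2 units. Tyrosine hydroxylase (Th) had a log2 signal of 13.8 against 7.07 to 9.10 in the other regions. The 14 cortical and hippocampal neuron markers had a median difference of -1.30, with 0 of 14 higher. Serotonin neuron markers were higher in 4 of 7 cases (median 0.42). As each region had its own slide, a level set across regions also carries the slide.

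At the high dose 37 of 24484 genes were called higher (0.151%) and 40 were called lower (0.163%), which means that the mean was past 1.5-fold and both arrays had its sign. With the probes of marked blocks left out these were 34 higher of 22197 (0.153%) and 19 lower (0.0856%). At these shares a short list is likely to hold 0 calls, so 0 called in a list below does not set it apart from all genes. The band held 21 of the 40 lower calls and 3 of the 37 higher calls. Of the 77 called genes, 42 had a gene symbol, 28 higher and 14 lower. Csf3r, Or52r1, Gucy2d, Gabrr1, Ces2a, Or8s8 and Tnni2 were 7 of these 14, all inside the band and all near 0 on array 2 (-0.26 to -0.02). Myct1 (1.36 and 0.16) lay in the patch. Sycp3l2 was called higher too, but its saline RNA was not well above background on either array, so it is named with no ratio.

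**Figure D2:**
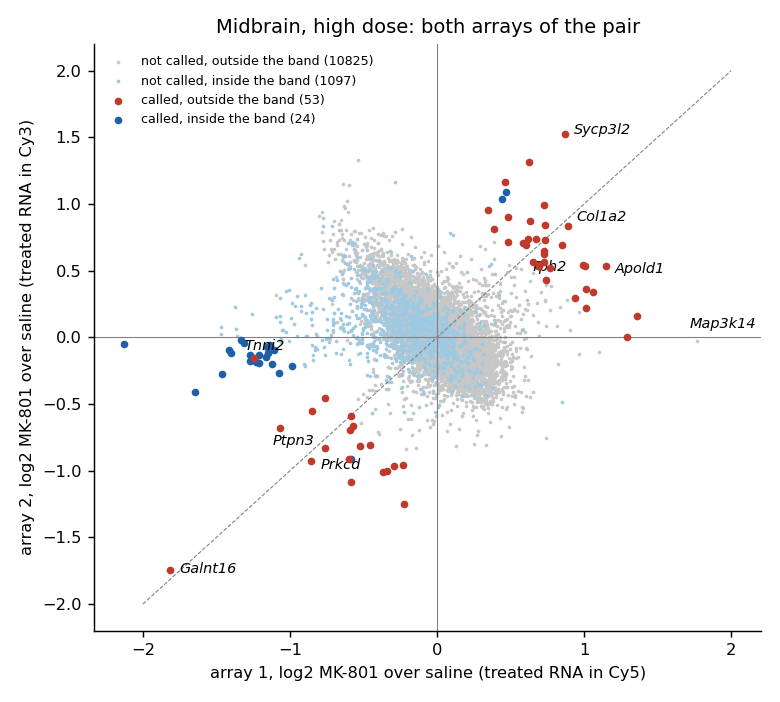
Log2 ratio on array 1 (horizontal axis) against array 2 (vertical axis), 1 point per gene with a symbol or called past 1.5-fold, coloured by call and by position in the marked blocks of array 1. Galnt16 and Col1a2 lie close to the dashed line of equal ratios, while most of the 24 called genes of the band are low on array 1 and near 0 on array 2.

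Genes of connective tissue and the coverings of the brain were the largest group among the higher calls. Col1a2, a chain of type I collagen, stood at 0.89 on array 1 and 0.84 on array 2. Igf2, a growth factor made by meningeal and choroid cells, stood at 0.725 and 0.996. Col3a1 (0.73 and 0.65), Col1a1 (0.73 and 0.56) and osteoglycin, Ogn (0.70 and 0.53), were called as well. These probes were above 0 on each array, while the other Col1a1 probes averaged 0.28 and one of them stood at 0.27 and -0.00. Of 18 listed meningeal and fibroblast markers 15 were measured, 5 were called higher (against 0.151% of all genes) and 0 lower, and 14 were above 0, with a median of 0.49 beside -0.00 over all genes. Members short of 1.5-fold included the matrix proteoglycans Dcn (0.53), Bgn (0.49) and Lum (0.39), the GABA and taurine transporter Slc6a13 (0.42) and the prostaglandin D synthase Ptgds (0.38). Only Slc22a6 was below 0, at -0.05. The summed signal of the 15 members was 94704 in saline and 137750 in treated RNA on array 1, and 88088 and 134013 on array 2. None of the 15 was at or below background. In a dissected piece, a different number of cells of a type and a different amount of RNA per cell cannot be told apart.

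The same markers lay on the other side of 0 at the low dose. There 13 of 13 measured members were below 0, with a median of -0.24: Col1a2 stood at -0.47 and -0.52 and Igf2 at -0.41 and -0.04. Both doses were hybridised against saline RNA of the midbrain and so share that control, and the difference between doses was not tested. At the high dose the list's median was 0.08 in the amygdala, 0.07 in the cortex, -0.03 in the ventral striatum, -0.19 in the hypothalamus and -0.39 in the hippocampus. Genes of contractile cells were also called higher in the midbrain. Des, the muscle intermediate filament, stood at 0.67 and 0.74, Tpm2 at 0.62 and 0.74, and smooth muscle myosin Myh11 at 0.35 and 0.95, although its other probe stood at -0.05. Tagln, at 0.44 and 1.04, and Mustn1, at 0.69 and 0.53, were called higher from inside the band. Cilp, a cartilage matrix protein, stood at 0.64 and 0.87 and its other probe at 0.22, and Cd74, the invariant chain of class II antigen presentation, at 0.58 and 0.70. Blood cell markers had a median of 0.16 at the high dose (7 of 9 above 0, 0 called) and -0.27 at the low dose (9 of 9 below 0). The haemoglobin gene Hbb stood at 0.23 and 0.58 at the high dose and at -0.56 on average at the low dose. How far the amount of meninges or blood in a piece takes part in these ratios was not tested.

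**Figure D3:**
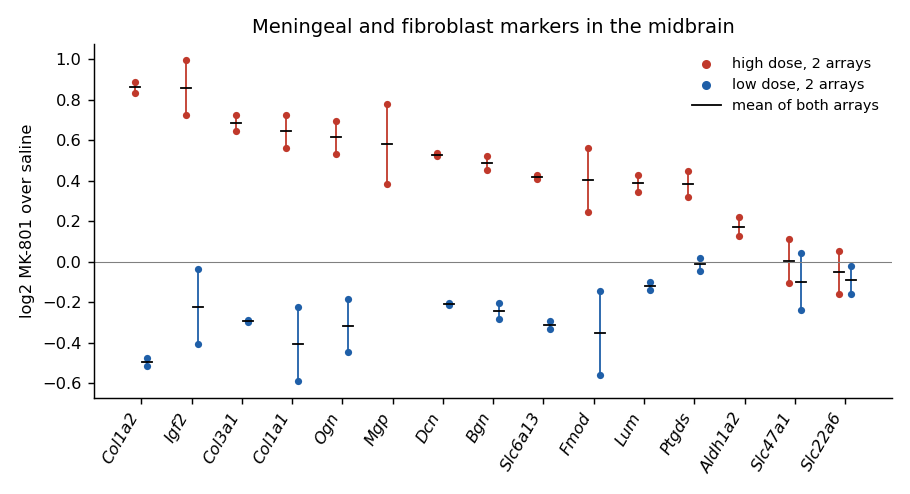
Log2 ratio of MK-801 over saline (vertical axis) of the 15 meningeal and fibroblast markers measured in the midbrain (horizontal axis), with points for both arrays of a dose and a black bar for their mean. All members from Col1a2 to Ptgds lie above 0 on both high-dose arrays, and their low-dose means lie below 0 wherever they were measured.

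Serotonin neurons were marked by a pair of called genes. Tph2, the enzyme that starts serotonin synthesis in the brain, stood at 0.996 on array 1 and 0.541 on array 2. Slc6a4, the serotonin transporter, stood at 0.72 and 0.62. Both were higher on each array. The other 5 measured members of the serotonin list lay between -0.17 and 0.16: the degrading enzyme Maob at 0.16, the transcription factors Gata3 and Gata2 at 0.09 and -0.01, the autoreceptor Htr1a at 0.04 and the transporter Slc22a3 at -0.17. At the low dose Tph2 stood at 1.42 and Slc6a4 at 0.90, so both doses had the same sign against their shared saline control. In the 4 other regions where Tph2 was measured it lay between -0.13 and 0.07. Its log2 saline signal was 9.47 in the midbrain and 6.68 to 8.08 in those regions, so their ratios rest on lower signal. The summed signal of the list was 2534 in saline and 2992 in treated RNA on array 1, and 2660 and 3649 on array 2. Whether the pieces held unequal amounts of raphe was not tested. Epyc, a small matrix proteoglycan, followed the same order of doses, with 1.02 and 0.36 at the high dose and a mean of 0.99 at the low dose.

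Cartpt and Ucn encode the peptides CART and urocortin, which neurons of the Edinger-Westphal nucleus make together. Cartpt stood at 0.77 and 0.52 and was called higher. Ucn, named here after its values were seen, stood at 0.74 and 0.39, with a mean of 0.56. At the low dose Cartpt stood at 0.49 and Ucn at 0.55. Their saline signals were the highest of all 6 regions in the midbrain (log2 13.8 and 11.7). Cholinergic markers, found in oculomotor neurons among others, stood at 0.03 (Chat), 0.05 (Slc18a3) and 0.20 (Slc5a7). Whether the pieces held unequal amounts of the Edinger-Westphal nucleus was not tested. Of the 23 measured markers of midbrain and brainstem neurons other than dopamine and serotonin cells, Cartpt was the only one called, and 12 were below 0.

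The windows of 250 bases before the annotated start of Cartpt and Ucn, and that of the efflux transporter Abcg2, each hold the letters TGACGTCA, the full cyclic AMP response element, which reads the same on both strands. They are shown because 2 of the 21 genes called higher whose window could be matched hold it (Abcg2 and Cartpt) and 0 of 12 called lower, beside 1.59% of all 33469 windows of that length and 2.73% of the 9737 measured genes with a symbol that were matched. Ucn was not called. Dusp1 and Btg2, not called either, also hold the element, 124 and 201 bases before their annotated starts. A match describes letters and not binding. Sequences are from RefSeq, build GRCr8, with the element in capitals: Abcg2 at chr4:89075224-89075473 (plus strand), Cartpt at chr2:32991236-32991485 (minus strand) and Ucn at chr6:30957836-30958085 (plus strand).
Abcg2: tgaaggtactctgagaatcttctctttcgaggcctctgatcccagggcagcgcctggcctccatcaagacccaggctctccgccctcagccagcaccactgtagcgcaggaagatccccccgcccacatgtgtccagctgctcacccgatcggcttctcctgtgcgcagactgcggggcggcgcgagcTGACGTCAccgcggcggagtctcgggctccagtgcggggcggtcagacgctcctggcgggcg
Cartpt: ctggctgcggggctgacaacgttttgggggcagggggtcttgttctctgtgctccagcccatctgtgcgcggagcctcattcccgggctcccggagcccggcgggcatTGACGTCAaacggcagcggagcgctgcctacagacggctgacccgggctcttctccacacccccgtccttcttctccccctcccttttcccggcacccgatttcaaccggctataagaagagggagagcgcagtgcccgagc
Ucn: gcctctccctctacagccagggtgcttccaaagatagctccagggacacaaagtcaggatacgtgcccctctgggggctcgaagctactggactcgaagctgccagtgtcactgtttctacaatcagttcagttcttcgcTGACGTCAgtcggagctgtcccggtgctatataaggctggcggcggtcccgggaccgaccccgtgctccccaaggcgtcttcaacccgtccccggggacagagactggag
The element starts 62 bases before the annotated start in Abcg2, 142 in Cartpt and 110 in Ucn.

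Galnt16, which encodes an enzyme that begins mucin-type O-glycosylation, was the lowest gene with a symbol, at -1.81 on array 1 and -1.75 on array 2. It was also low in each of the other regions, from -2.24 to -1.80, and stood at -0.51 in the midbrain at the low dose. P3h3 (-0.63), Trps1 (-0.59), Syde2 (-0.62) and salivary amylase Amy1 (-0.70) were likewise called lower. At the high dose these genes were also below 0 in every other region where they were measured. There P3h3 lay from -0.92 to -0.63, Trps1 from -0.62 to -0.30, Syde2 from -0.52 to -0.20 and Amy1 from -0.56 to -0.15. For Trps1, a transcriptional repressor, the other probes averaged 0.00. P3h3 and Syde2 stood on the other side of 0 at the low dose, at 0.56 and 0.36.

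Of 13 measured thalamic neuron markers 11 were below 0, with a median of -0.15, and Prkcd alone was called. Prkcd, protein kinase C delta, stood at -0.85 and -0.93, and Ptpn3, a tyrosine phosphatase, at -1.07 and -0.68. Both were lower on each array and were called. The axon guidance gene Ntng1 (-0.44 and -0.56, inside the band) and the receptor activity-modifying protein Ramp3 (-0.42 and -0.29) were short of 1.5-fold. The GABA-A receptor subunits delta and alpha-4, which form extrasynaptic receptors in thalamic neurons, stood at -0.52 and -0.64 (Gabrd) and at -0.48 and -0.44 (Gabra4). Ptpn3, Gabrd and Gabra4 are not members of the thalamic list and were set beside it after their values were seen. The summed signal of the 13 thalamic markers was 51656 in saline and 44634 in treated RNA on array 1, and 48416 and 48211 on array 2. The low dose gave a median of -0.16, with Prkcd at -1.17, Ptpn3 at -1.03, Gabrd at -0.75 and Gabra4 at -0.61. In saline RNA Prkcd had a log2 signal of 12.7 in the midbrain and 15.9 in the hypothalamus piece, where Gabrd, Ntng1, Ramp3 and Ptpn3 were also highest of the 6 regions. Gabra4 was highest in the ventral striatum. Whether the amount of thalamus in the pieces differed was not tested. Of 19 measured GABA signalling genes 16 were below 0 and 0 were called, with a median of -0.08. Apart from Gabrd and Gabra4 they lay between -0.15 for Gad1, which makes GABA and lies inside the band, and 0.15 for the transporter Slc6a11.

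Of 54 measured immediate early genes 3 were called higher and 0 lower, where 0.151% of all genes were called higher, and 31 were above 0, with a median of 0.03. Apold1, an early gene of endothelial cells, stood at 1.15 and 0.53, the kinase Sgk1 at 0.73 and 0.84, and the secreted matrix protein Ccn1 at 0.61 and 0.69, with its other probe at 0.15. Short of the threshold were the phosphatase Dusp1 (0.55), the Krüppel-like factors Klf4 (0.90 on array 1 and 0.05 on array 2) and Klf2 (0.46, inside the band) and the antiproliferative gene Btg2 (0.47). Fos stood at 0.00 and 0.29 and Arc at 0.06 and -0.15, while Egr1 stood at -0.11 and -0.42. Npas4 was not well above background and has no value. In the midbrain, 9 of these 10 genes other than Sgk1 (Apold1, Ccn1, Dusp1, Klf4, Klf2, Btg2, Fos, Egr1 and Atf3) had the lowest ratio of the 6 regions, and Arc had the next to lowest. Ccn1 averaged 3.08 over the other regions and Apold1 2.15, and Atf3, a stress-induced factor, stood at -0.10 in the midbrain against 1.77. None of these differences passed the test of the midbrain against the other regions (limma adjusted p from 0.42 for Atf3 to 0.97 for Arc). The other regions ranged from 1.69 to 4.16 for Ccn1. At the low dose in the midbrain Ccn1 stood at -0.04, Apold1 at 0.30 and Sgk1 at 0.60.

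**Figure D4:**
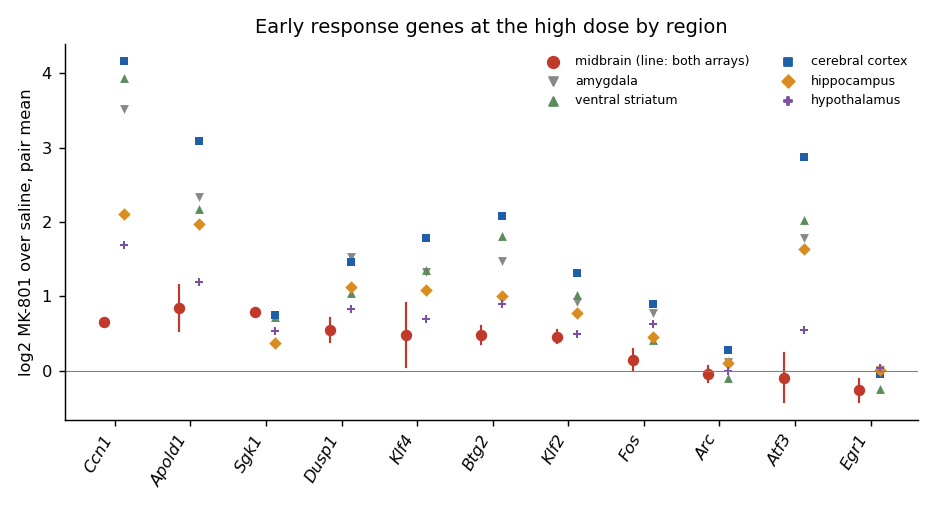
Log2 ratio of MK-801 over saline (vertical axis) of early response genes (horizontal axis) at the high dose. The large red point is the midbrain mean and its line joins both arrays, and the smaller symbols are the pair means of the other regions. Ccn1, Apold1, Btg2 and Atf3 lie lowest in the midbrain, whereas Sgk1 lies at 0.79 in the midbrain and at 0.37 to 0.75 in 4 other regions.

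Glucocorticoid-responsive genes lay to the upper side together. Of 21 measured members 19 were above 0, with a median of 0.25, although Sgk1 alone was called. Besides Sgk1 and Dusp1 the highest were the kinase Map3k6 (0.50), the EGF receptor inhibitor Errfi1 (0.43), Cebpd (0.37), the NF-kappa-B inhibitor Nfkbia (0.35), the clock gene Per1 (0.34) and the steroid receptor chaperone Fkbp5 (0.30). Tsc22d3, a direct glucocorticoid target, stood at 0.15 and 0.26 and its other probe at -0.26 and 0.55. The other Fkbp5 probes stood at -0.20 and 0.44 and at -0.01 and 0.65. Of the 21, 15 were above 0 on array 1 and array 2 alike. At the low dose the median was 0.13 over 19 members, 15 of them above 0. In the other regions at the high dose the list's median lay from 0.10 (hippocampus) to 0.24 (ventral striatum). Abcg2, an efflux pump of the blood-brain barrier, stood at 0.73 on array 1 and 0.73 on array 2, and between 0.54 and 0.83 in the other regions. The 26 measured endothelial and mural markers, Abcg2 included, had a median of 0.09 with 19 above 0, and Abcg2, Tagln and Myh11 were the members called.

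Transcripts of the receptor that MK-801 blocks lay near 0, with 6 measured subunits between -0.10 and 0.10 and 0 called. Grin1 stood at 0.06 and -0.21, Grin2a at -0.00 and -0.19, Grin2b at -0.08 and 0.00, Grin2c at -0.19 and 0.17 and Grin3a at 0.09 and 0.12. Grin2d and Slc6a3, the dopamine transporter, have no mean because a spot was left out as an outlier. Dopamine neuron markers had a median of 0.05 over 17 genes, from -0.20 (Calb1) to 0.15 (Gch1), with 0 called, and Th stood at -0.15 and 0.43. AMPA, kainate and metabotropic glutamate receptor genes had a median of -0.05 with 0 of 16 called. Potassium channel genes had a median of -0.07, with 32 of 42 below 0 and 0 called. Over all genes 0.151% were called higher and 0.163% lower, so 0 calls in lists of these sizes is near that share.

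Interferon-stimulated genes lay to the lower side, with 20 of 25 below 0 and a median of -0.15, and 0 were called. Irf7, the factor that drives their transcription, stood at -0.40 and -0.71, Rtp4 at -0.15 and -0.83, and the ubiquitin-like Isg15 at -0.42 and -0.40. Their means over the other 5 regions were close, at -0.59, -0.45 and -0.56. At the low dose the median was -0.05. Class I histocompatibility genes had a median of -0.02, with 0 of 19 called. Oligodendrocyte (0.07 over 23 genes), astrocyte (0.07 over 15) and microglia (0.11 over 19) markers had medians within 0.11 of 0 and 0 calls. Heat shock (-0.03 over 14), clock (0.04 over 18), inflammatory (0.01 over 20) and motile cilia genes (-0.02 over 17) had 0 calls. For each list in this paragraph 0 calls is near the share over all genes, 0.151% higher and 0.163% lower.

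Where the midbrain differed from the other 5 regions was tested with limma on the 6 high-dose pair means. The midbrain entered as 1 value and was assumed to vary like the others, and the p-values measure the spread between regions of the same rats. A gene may also have little signal outside the midbrain. Ucn had a log2 saline signal of 11.7 in the midbrain and 7.29 to 7.92 elsewhere, so its ratios elsewhere rest on low signal. Of 17101 genes, 11 had a higher ratio in the midbrain (0.0643%) and 20 a lower one (0.117%) at an adjusted p under 0.05. With the marked blocks left out there were 7 higher (0.0453%) and 6 lower (0.0388%) of 15462, and 12 of the 20 lower genes lay in the band. Outside the band and the patch, the higher genes included the transporter Slc6a13 (midbrain 0.43 and 0.41, others -0.30 on average, difference 0.71 ± 0.09 SE, limma adjusted p = 0.0107). Prostacyclin synthase Ptgis stood at 0.48 and 0.72 against 0.04 (difference 0.56 ± 0.08, limma adjusted p = 0.0159). The collagen-processing protein Pcolce stood at 0.88 and 0.28 against -0.02 (limma adjusted p = 0.0256). The matrix protein asporin, Aspn, stood at 0.69 and 0.55 against 0.07 (limma adjusted p = 0.0372). Ucn was higher by 0.51 ± 0.08 (limma adjusted p = 0.0463). In the midbrain at the low dose Slc6a13 (-0.31), Pcolce (-0.21) and Aspn (-0.14) were below 0, whereas Ptgis (0.19) and Ucn were above 0. Without the marked blocks Aspn (limma adjusted p = 0.057) and Ucn (0.0694) no longer passed. Tst, a mitochondrial sulfurtransferase, stood at 0.85 and 0.69 against 0.16 (difference 0.61 ± 0.07, limma adjusted p = 0.00694). It lies in the patch of array 1, which held 4 of the 11 higher genes. Another of these, the kinase Map3k14, stood at 1.76 on array 1 and -0.03 on array 2 (difference 0.84, limma adjusted p = 0.00214). With the patch left out, an alternative chosen after the data were seen, 6 genes were higher and 16 lower.

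Lower in the midbrain than elsewhere was Prkcd, with a difference of -0.88 ± 0.10 SE (limma adjusted p = 0.00694), and in the other regions it lay between -0.11 and 0.19. Gabrd differed by -0.67 ± 0.09 (limma adjusted p = 0.0154) and Ramp3 by -0.49 ± 0.07 (limma adjusted p = 0.0278). The signalling protein Wnt2b stood at -0.25 and -0.69 (limma adjusted p = 0.0463, and 0.0694 without the marked blocks). The meningeal collagens did not pass. In the hippocampus Col1a2 stood at -0.89. Col1a2 differed by 1.08 ± 0.29 (limma adjusted p = 0.302) and Col3a1 by 0.88 ± 0.20 (limma adjusted p = 0.17). Cartpt, at 0.79 ± 0.13, had a limma adjusted p of 0.0559. With scan day as a block Prkcd, Tst, Gabrd and Slc6a13 did not pass. The amygdala was the only other region scanned on the day of the midbrain. The difference in the blocked fit is therefore the midbrain minus the amygdala alone, and the remaining regions add only to the spread. It was -0.87 for Prkcd, 0.63 for Tst, -0.64 for Gabrd and 0.62 for Slc6a13. The amygdala values behind these differences were -0.02 for Prkcd, 0.06 for Gabrd, 0.14 for Tst and -0.20 for Slc6a13. Each region lay on a slide of its own, so slide and region cannot be told apart. With median centring in place of loess no gene passed the limma test.

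**Figure D5:**
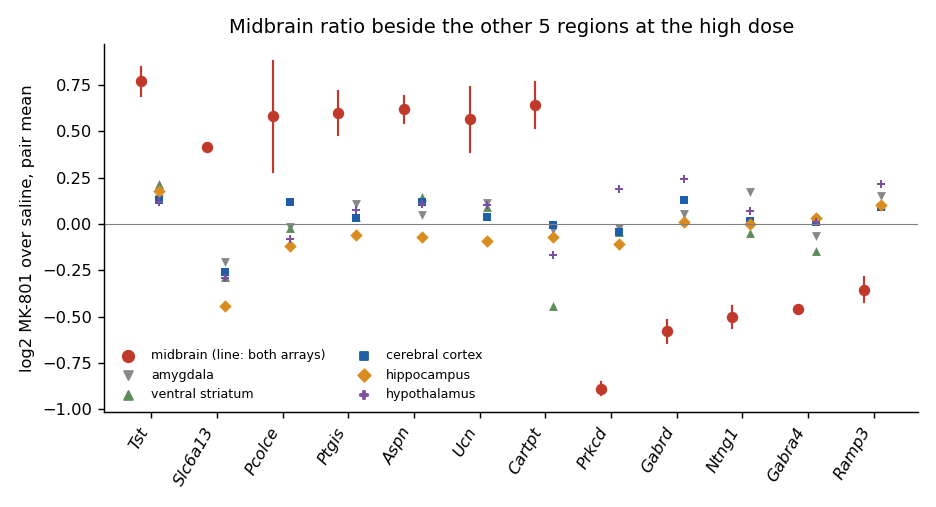
Log2 ratio of MK-801 over saline at the high dose (vertical axis) for 12 genes whose midbrain ratio lay outside the range of the other regions (horizontal axis). The large red point is the midbrain mean with a line joining both arrays, and smaller symbols are pair means of the other 5 regions. Tst, Slc6a13 and Ucn lie above and Prkcd and Gabrd below every other region.

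Some midbrain calls were also calls elsewhere. Of the 77 called genes, 10 were called higher and 7 lower in the cortex at the high dose as well (22.1% of the midbrain calls and 32.1% of the 53 cortex calls), with 0 in opposite directions. In the hypothalamus 10 higher and 5 lower calls were shared (19.5% and 26.3%). In the hippocampus 6 higher and 6 lower were shared and 5 were called in opposite directions. In the amygdala 6 higher and 3 lower were shared, and in the ventral striatum 7 and 3. The midbrain at the low dose, which has the same saline control, shared 8 higher and 7 lower (19.5% of the high-dose calls and 30.6% of its 49). There 1 gene was called in the opposite direction.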

How the data were processed

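RNA of 6 brain regions was hybridised to 24 Agilent arrays of 2 colours. The authors deposited spot intensity values per array, written by Agilent Feature Extraction 9.5.3.1 per the file headers. They also deposited a value table in log10, whose direction is treated over saline and whose values lie within 0.01 of the ratio of the processed signals. Its array medians for the high-dose midbrain were -0.01 and 0.01.

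From the mean and background signals, ratios were computed with limma 3.58.1 in R 4.3.3 (normexp with offset 50, loess within arrays, control spots at weight 0, outlier spots left out). The sign was turned where treated RNA was in Cy3. Spots of a probe were averaged, and the brightest of several probes stood for a gene. Probes had to be well above background in the midbrain, which left 24484 genes or unnamed features, 11964 with a symbol. The number of arrays, their signal over background and the band and patch of array 1 limit the precision. A gene was called where the mean passed 1.5-fold and both arrays had its sign, with no test.

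The midbrain was tested against the other 5 regions with limma on the 6 pair means, with Benjamini-Hochberg adjusted p under 0.05. On simulated data of 17101 genes, 70% of changes of 0.5 and 97% of changes of 1 (log2) were recovered, with 10 false calls among 177. The simulation gave the midbrain the same spread as the other regions and held no band or patch. Its rates therefore do not test that assumption and do not cover array position. Named genes were up to 12 called genes per direction, by size, with a symbol and both channels above background. Up to 4 called members per list and direction and the 6 largest differences from the other regions in each direction were added. So was a set of genes given whether called or not. Other genes are named because they belong to a list described or were picked after their values were seen, such as Ramp3, Gabra4, Wnt2b, Errfi1 and Sycp3l2. The comparison, the lists and the members were chosen with earlier results of these data known. The alternatives by position on the array were added after the data were seen. Promoters were matched by symbol to RefSeq (GRCr8).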

Additional observations from a re-analysis of the deposited data

Results flagged for a closer look

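The genes below are the 6 largest differences in each direction between the midbrain and the other 5 regions at the high dose among those that passed the limma test, so their number was set by that choice. The higher ones were Map3k14 (0.84), Slc6a13 (0.71), Tst (0.61), Pcolce (0.60), Ptgis (0.56) and Aspn (0.55), as differences on the log2 scale. Map3k14 and Tst lie in the patch of array 1, and Map3k14 stood at -0.03 on array 2. The lower ones outside the band were Prkcd (-0.88) and Gabrd (-0.67). The lower ones inside the band were Ces2a (-0.67), Tnni2 (-0.66), Or8s8 (-0.63) and Efcab6 (-0.62), each between -0.19 and 0.01 on array 2. With scan day as a block, which sets the midbrain against the amygdala alone, Map3k14 still passed. The other genes of both directions, inside and outside the band, no longer did. The treated RNA of Ces2a was not well above background on either array, so its difference is no measured size. The part of array position in these differences was not tested beyond leaving the positions out.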

How the results depend on the processing

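The count of midbrain calls (77: 37 higher, 40 lower) moved with normalization, threshold and array, and causes were not tested. It was 467 (198 and 269) with processed signals, 449 (197 and 252) with the deposited table, 135 (84 lower) with offset 16, 50 (23 higher) with median centring and 116 (76 lower) without the signal filter. It was 4 (1 and 3) at 2-fold, 263 (111 and 152) at 1.3-fold, 45 (15 lower) with each array past 1.3-fold and 460 (215 and 245) by a limma fit over all 24 arrays, which takes both arrays of a pair as replicates. Lower calls were 19 without the marked blocks and 22 with block medians subtracted. Leaving out array 1 or array 2 gave 348 and 813 calls (245 and 108 higher, 103 and 705 lower). List members called, 15 in all, were 27 with processed signals, 26 with the deposited table, 8 with median centring and 32 without either array. The region contrast (31: 11 higher, 20 lower) gave 0 (0 and 0) with median centring by limma, where 200 genes had an unadjusted p under 0.05. It gave 668 (80 and 588) without the signal filter, 19 (6 and 13) with both channels above background, 13 (7 and 6) without the marked blocks, 11 (3 and 8) in the fit blocked by scan day and 12 (2 and 10) with both doses averaged. Without array 1 or 2 it gave 9 and 156 (3 and 29 higher, 6 and 127 lower). Higher genes were 7 with processed signals, the deposited table, offset 16 or without the hypothalamus, 6 without the patch, 21 without the hippocampus and 22 with trend and robust moderation. Lower genes were 6 with block medians subtracted. For Map3k14 the difference was -0.15 without array 1, a reversal, and 1.84 without array 2. The dopamine marker difference in saline was 2.65 to 2.76 without either array. No paired analysis was possible because both arrays of a pair enter as 1 value and replicate numbers mark the dye orientation.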
